A study of Mus musculus with 6 samples.

Results

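The genes described here are 10 imprinted genes known from blood stem cells: H19, Meg3, Cdkn1c, Ndn, Peg3, Grb10, Plagl1, Igf2r, Kcnq1ot1 and Impact. They were taken by gene name from the deposited expression table, which held all 10 among its 55487 genes. RNA had been sequenced in bulk from LT-HSCs, the long-term stem cells of the marrow that renew all blood lineages. These had been sorted from cells free of lineage markers by presence of c-Kit and Sca-1 and absence of CD34 and Flk2. The mice were wild type and unirradiated, and had received saline (3 libraries) or carnosine (3 libraries), a dipeptide of beta-alanine and histidine. The sources used here give neither dose nor duration, and neither the age, the sex nor the number of the mice. Nothing in the labels says that the libraries of a group came from separate animals, so p-values measure the spread between these libraries, which may be technical.

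An imprinted gene is expressed mainly from a single parental allele. The parental alleles are told apart by DNA methylation set in the germ line. Such genes lie in clusters governed by a shared control region, often with a long noncoding RNA that silences its neighbours on the same chromosome. In blood stem cells the H19 and Igf2 locus and the Dlk1 and Meg3 locus are known for restraining growth signals, and Cdkn1c for holding cells out of the cell cycle. Of the 10 genes, H19, Meg3, Cdkn1c, Igf2r and Grb10 are known as expressed from the maternal allele in most tissues. Ndn, Peg3, Plagl1, Kcnq1ot1 and Impact are known as expressed from the paternal allele. The deposited counts sum both alleles, so allelic expression itself was not measured.

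The libraries held 10304539 to 13251332 counts. A count of 0 allows up to 3 counts, which was 0.227 to 0.291 CPM (counts scaled to a common library total). Genes with at least 1 count numbered 23899 to 25288 in saline and 22218 to 22820 in carnosine. All 12 stem cell markers listed were read, with a summed level of 1203 to 1233 CPM in saline and 1194 to 1342 CPM in carnosine. Of these, Mecom, a stem cell transcription factor, rose by 0.19 on the log2 scale (edgeR adjusted p = 0.0241). RNA of Flt3 (816 CPM in saline), which encodes Flk2, and of Cd34 (855 CPM) was also read, although the sort selects cells without these proteins on the surface. Per kilobase of exon, Flt3 and Cd34 lay at the 97.1st and 96.8th percentiles of tested genes. The stem cell markers ran from Hoxb5 (8.92) and Slamf1 (9.46) to Kit (93.7). Multipotent progenitor markers ran from Il7r (24.2) to Dntt (97.8). The levels below are therefore those of the sorted cells as a whole, and their make-up was not tested.

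Of the 10 imprinted genes, 8 had enough counts to be tested between groups, and 1 of these passed the threshold. Kcnq1ot1 was lower in carnosine, by 0.65 on the log2 scale. None rose. Over all 15298 genes tested, 17.9% passed in either direction, 9.51% higher and 8.39% lower in carnosine, so the members' count lies near the share among all genes. The members' median log2 fold change was -0.01, against 0.00 over all genes, and their median absolute change was 0.17, against 0.16. The other 7 tested members had adjusted p-values from 0.0598 to 0.768 (edgeR). H19 and Meg3 stayed under the filter on low counts. Whether the libraries of the groups overlapped is described below for called and uncalled members alike. The share of all genes that separate in this way is not given here, so separation alone is not read as a difference.

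**Figure D1:**
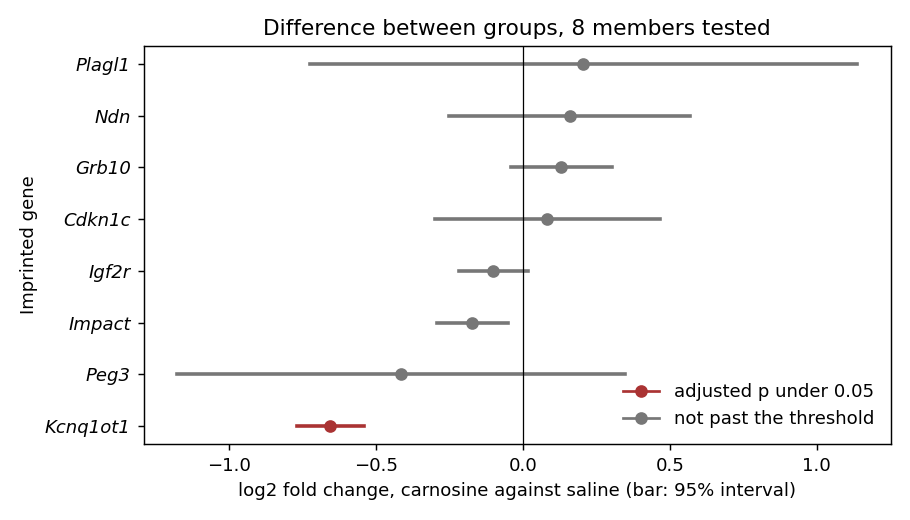
log2 fold change of carnosine against saline (x axis) for the 8 imprinted genes tested (y axis), with its 95% interval from edgeR. Kcnq1ot1 lies at -0.65 with an interval from -0.77 to -0.54, and the widest intervals belong to Plagl1 and Peg3, the tested members with the fewest counts.

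The levels of the 10 genes spanned more than 2 orders of magnitude. To compare genes, CPM was divided by the length of each gene's merged exons in kilobases. On this scale the order was Impact (mean over 6 libraries 11.7 CPM per kilobase), Igf2r (6.31), Cdkn1c (4.65), Grb10 (3.50), Ndn (2.46) and Kcnq1ot1 (1.2). Far below came H19 (0.146), Plagl1 (0.106), Peg3 (0.0665) and Meg3 (0.0194). The ranges over the 6 libraries overlapped between Cdkn1c and Grb10, between Grb10 and Ndn, between H19 and Plagl1 and between Plagl1 and Peg3. They did not overlap between the other neighbours in this order.

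Among all tested genes with a known length the median level was 6.75 CPM per kilobase. Impact lay at the 65.6th percentile, Igf2r at the 48.3rd and Kcnq1ot1 at the 16.3rd. H19, Plagl1, Peg3 and Meg3 each lay below the first percentile. H19 and Meg3 are not themselves among the tested genes, from which genes of low count had been removed. Their low place therefore follows in part from that filter. The deposited FPKM values (fragments scaled to gene length and library total) gave another order, with Cdkn1c (1.83) below Ndn (2.46). For some genes those values rest on a length beyond that of the merged exons. For H19 count, FPKM and total implied 8060 bases against 2460 bases of merged exons, and for Cdkn1c 5185 against 2039 bases.

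**Figure D2:**
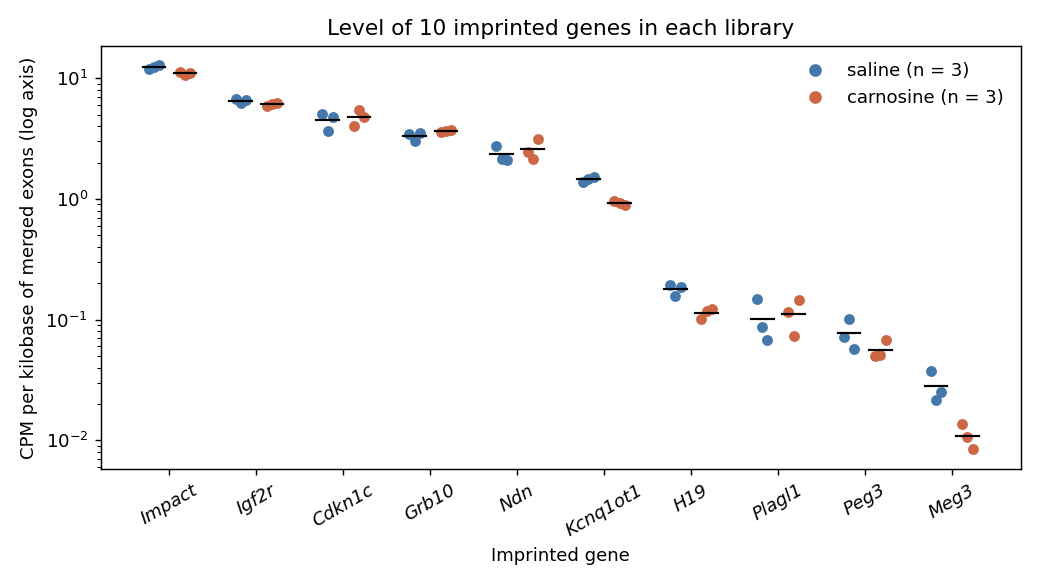
Level of each imprinted gene (x axis) in CPM per kilobase of merged exons (y axis, log scale), with a point for each library and a black line at the mean of each group of 3. Impact, Igf2r, Cdkn1c, Grb10, Ndn and Kcnq1ot1 lie at or above 0.898, and the other 4 genes at or below 0.195.

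Kcnq1ot1 is a long nuclear RNA that runs antisense through the potassium channel gene Kcnq1 and silences genes around it on the paternal chromosome. It is annotated as a single unspliced exon of 93092 bases (ENSMUSG00000101609, GRCm38 chromosome 7, 143203458 to 143296549, minus strand). It is shown here with its start because it is the member that changed. The RefSeq promoter table (GRCm38.p6) held 7 of the 10 members. The windows of 300 bases, 250 before to 50 after the start, are printed for Kcnq1ot1 (chr7:143296498-143296797, minus strand) and, as a contrast in CpG content, for Igf2r (chr17:12769657-12769956, minus strand). Capitals mark each CG, the dinucleotide at which imprints are methylated.
Kcnq1ot1: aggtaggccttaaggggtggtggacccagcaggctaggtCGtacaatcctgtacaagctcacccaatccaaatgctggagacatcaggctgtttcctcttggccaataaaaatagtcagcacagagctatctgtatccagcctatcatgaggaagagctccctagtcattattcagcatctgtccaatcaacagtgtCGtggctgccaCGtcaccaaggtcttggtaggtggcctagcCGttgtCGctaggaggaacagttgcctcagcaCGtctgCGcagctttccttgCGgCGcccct
Igf2r: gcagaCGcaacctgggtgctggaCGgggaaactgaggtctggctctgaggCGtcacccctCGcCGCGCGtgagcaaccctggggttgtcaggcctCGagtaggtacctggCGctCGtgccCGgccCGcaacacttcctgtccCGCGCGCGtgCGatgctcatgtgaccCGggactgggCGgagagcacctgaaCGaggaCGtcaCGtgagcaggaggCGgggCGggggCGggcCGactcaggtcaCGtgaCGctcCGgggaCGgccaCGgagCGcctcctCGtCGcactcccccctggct
The Kcnq1ot1 window held 9 CG and that of Igf2r 34, against a median of 7 over 32851 windows, 94.6% of which held at least 1. The motif TGCCGC, bound by the imprint-protecting zinc finger protein ZFP57 when methylated, was sought on both strands, where it reads GCGGCA on the other. It occurred in 11.6% of all windows and in neither of these. Among the 7 members in the table it occurred once each in a window of Plagl1, Grb10 and Meg3. Sequence outside the windows of 300 bases was not searched, so control regions that lie beyond them are not covered.

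Kcnq1ot1 gave 130, 137 and 142 CPM in the saline libraries. It gave 90.3, 85.9 and 83.6 CPM in the carnosine libraries. All 3 carnosine libraries lay below all 3 saline libraries. The means were 136 ± 6.20 CPM (SD, n = 3) and 86.6 ± 3.41 CPM (SD, n = 3), that is 36.4% less in carnosine. On the log2 scale the change was -0.65 (SE 0.05), with an edgeR adjusted p of 0.000183. In bulk RNA fewer cells expressing a gene and less RNA per cell cannot be told apart. Reads assigned to Kcnq1, on the opposite strand, were 12 over all 6 libraries against 7731 for Kcnq1ot1. The sources used here do not give the strand setting of the counting, so reads of the unspliced Kcnq1 RNA could be among those of Kcnq1ot1.

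By the root mean square difference in centred log2 CPM over the 6 libraries, the 3 genes most like Kcnq1ot1 among 13601 were Malat1, Med1 and Dynll1. The differences were 0.04 log2 units for each. This measure includes the difference between groups, so a fall like that of Kcnq1ot1 follows from the selection and is no separate result. Malat1, a nuclear noncoding RNA, fell by 0.62 on the log2 scale, from 1835 to 1196 CPM (edgeR adjusted p = 5.12e-06). Med1, a Mediator subunit, fell by 0.61 and the dynein light chain Dynll1 by 0.71 on the same scale.

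Several other measures moved with the groups, and their part in the lower Kcnq1ot1 level was not tested. Over all genes, 8.39% were lower and 9.51% higher in carnosine. Transcripts of the provisional annotation class TEC took 0.164% to 0.165% of counts in saline and 0.117% to 0.120% in carnosine. Of 388 tested, 67 fell (17.3%) and 1 rose. Antisense RNAs, the class to which Kcnq1ot1 is assigned, took 0.126% to 0.134% in saline and 0.110% to 0.113% in carnosine. Kcnq1ot1 is itself among these counts. Of 246 antisense RNAs tested, 13 were lower (5.28%) and 0 higher. Long intergenic noncoding RNAs took 0.462% to 0.469% in saline and 0.359% to 0.361% in carnosine. Of 203 tested, 18 were lower (8.87%) and 4 higher. Of 8 multipotent progenitor markers 3 fell, and their summed level was 2825 to 2866 CPM in saline and 2469 to 2513 CPM in carnosine, with none at 0. Of 7 erythroid markers 3 rose, with a sum of 159 to 180 CPM in saline and 229 to 240 CPM in carnosine, and none was at 0. Of 7 tested B lineage markers 1 rose and 3 fell, and the sum of all 8 was 459 to 527 CPM in saline and 598 to 842 CPM in carnosine. Of 5 tested neutrophil markers 1 fell, with a median log2 fold change of 0.14, although their sum was lower. That marker was Elane, a granule protease gene, which fell from 33.8 to 22 CPM (edgeR adjusted p = 0.00256). The sums in saline and carnosine were, for the 7 neutrophil markers, 141 to 163 CPM and 107 to 123 CPM, for the 7 T and NK markers, 89.1 to 93.4 CPM and 81.3 to 85.2 CPM, and for the 5 endothelial markers, 160 to 162 CPM and 147 to 149 CPM. None of these was at 0 in all libraries. Of 4 tested T and NK markers 1 fell and 0 rose, with a median log2 fold change of -0.08. Of 5 tested endothelial markers 1 fell and 0 rose, with a median of -0.001. In saline Nkg7 (85.8 CPM per kilobase) stood far above the other T and NK markers. Pecam1 (18.7 CPM per kilobase) likewise stood far above the other endothelial markers, so each sum rests largely on 1 gene. The summed levels of 5 megakaryocyte and 7 stromal markers overlapped between groups, with the bone cell marker Bglap at 0.

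The region of chromosome 7 around Kcnq1ot1 also holds Cdkn1c, which encodes the CDK inhibitor p57, and the H19 and Igf2 locus. Neighbours of all 3 members were listed together, which does not mean that they share 1 control region. Of 11 neighbouring genes listed in this region, 7 were tested, of which 1 fell and 0 rose. That is 14.3% called, against 17.9% of all genes. Osbpl5, an oxysterol-binding protein gene, fell from 29.1 ± 1.18 CPM to 21.6 ± 1.33 CPM (SD, n = 3), or by 0.43 on the log2 scale (SE 0.07, edgeR adjusted p = 0.00799). The transporter gene Slc22a18 (6.98 and 7.12 CPM) and the placental growth regulator Phlda2 (2.59 and 3.11 CPM), singled out after their values were seen because they lie beside Cdkn1c, gave no call (edgeR adjusted p = 0.908 and 0.467).

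Cdkn1c (ENSMUSG00000037664, chromosome 7, 143458339 to 143461050) gave 10.3, 7.46 and 9.83 CPM in saline and 8.28, 11.2 and 9.83 CPM in carnosine. The groups overlapped throughout. The log2 fold change was 0.08 with a 95% interval from -0.30 to 0.47 (SE 0.16, edgeR adjusted p = 0.768). The related inhibitors also gave no call. Cdkn1a, which encodes p21, measured 151 ± 60.8 CPM and 217 ± 62.3 CPM (SD, n = 3; edgeR adjusted p = 0.308), with the saline libraries at 915, 2157 and 2082 counts. Cdkn1b, which encodes p27, measured 86.3 ± 21.3 CPM and 85.2 ± 25.5 CPM (SD, n = 3). Of 12 tested CDK inhibitors, CDKs and cyclins 2 rose and 0 fell, that is 16.7% called against 17.9% of all genes. The 2 that rose were the G1 kinase Cdk4 (+0.26, edgeR adjusted p = 0.0226) and its cyclin Ccnd1 (+0.29, edgeR adjusted p = 0.0406). The call of Cdk4 was lost when any 1 of the 3 saline libraries was left out (edgeR adjusted p = 0.0533 to 0.0725). That of Ccnd1 was lost without any saline library or without carnosine replicate 1 or 2 (edgeR adjusted p = 0.0662 to 0.111), with DESeq2 (adjusted p = 0.0879) and on FPKM values with limma (adjusted p = 0.0573 and 0.0564).

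**Figure D3:**
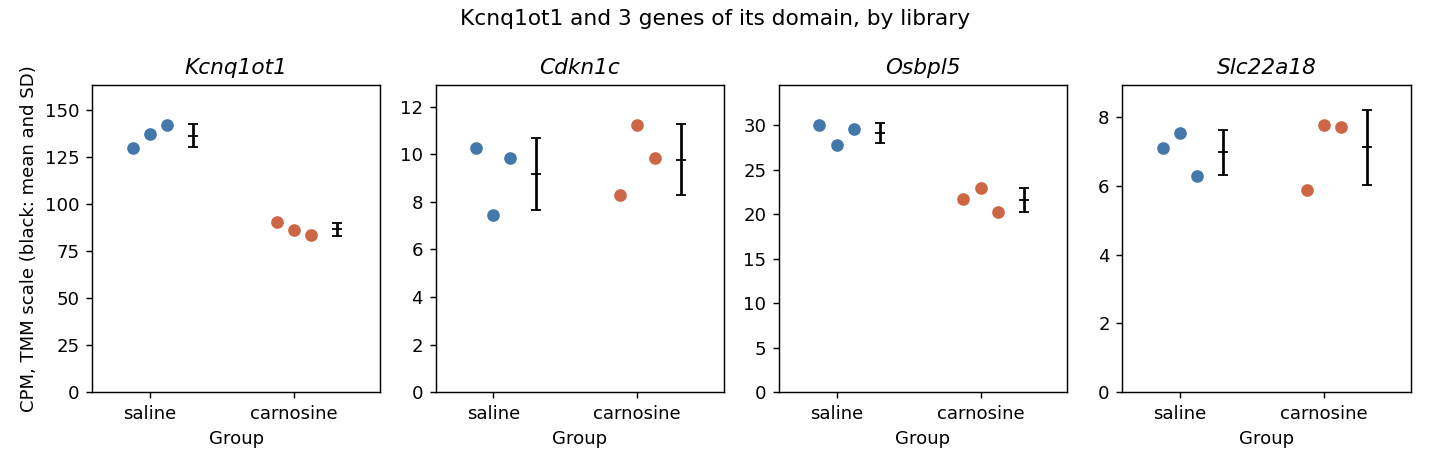
CPM (y axis, from 0) of Kcnq1ot1, Cdkn1c, Osbpl5 and Slc22a18 in the 3 saline and 3 carnosine libraries (points), with the mean and SD of each group in black. The groups of Kcnq1ot1 (136 and 86.6 CPM) and Osbpl5 (29.1 and 21.6 CPM) stand apart, while those of Cdkn1c and Slc22a18 overlap.

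H19 (ENSMUSG00000000031, chromosome 7, 142575529 to 142578143) is a noncoding RNA made from the maternal chromosome, and its first exon carries miR-675. The 2 mature arms are shown because they are the known products of this RNA, with the seed (bases 2 to 8) in capitals (RefSeq, GRCm38.p6).
miR-675-5p: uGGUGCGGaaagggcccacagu
miR-675-3p: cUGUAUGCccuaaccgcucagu
The 2 seeds differ, and neither miRNA is measured by a poly-A library. H19 itself gave 5, 4 and 6 counts in the saline libraries. It gave 3, 3 and 4 counts in the carnosine libraries, at or just above the level that a count of 0 allows. In CPM the groups did not overlap, at 0.440 ± 0.0476 and 0.280 ± 0.0281 (SD, n = 3), and the two-sided exact permutation test gave p = 0.1, the smallest possible with 3 against 3. The ratio of summed counts, carnosine to saline, was 0.634 with a 95% counting interval from 0.255 to 1.51, so that no difference was detectable at this depth.

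Igf2, which encodes the growth factor IGF2 and shares enhancers with H19, gave 23, 3 and 4 counts in saline and 2, 0 and 3 in carnosine. The 23 counts came from saline replicate 1 alone, and without that library both groups lie at a few counts. Igf2r (ENSMUSG00000023830, chromosome 17, 12682406 to 12769664), the mannose 6-phosphate receptor that removes IGF2 and carries enzymes to the lysosome, was among the most abundant members. It gave 62.5, 58.6 and 61.2 CPM in saline. It gave 54.9, 57 and 58.2 CPM in carnosine, below each saline library by a small margin. The log2 fold change was -0.10 with a 95% interval from -0.22 to 0.02 (SE 0.05, edgeR adjusted p = 0.211). Airn, the noncoding RNA that silences Igf2r on the paternal allele and overlaps it on the opposite strand, was read at 6 to 21 counts per library (1.41 and 0.979 CPM, edgeR adjusted p = 0.482).

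Grb10 (ENSMUSG00000020176, chromosome 11, 11930508 to 12038683) encodes an adaptor that binds the insulin and IGF1 receptors and damps their signal. It gave 31.2, 27.6 and 32.3 CPM in saline and 32.8, 33.2 and 34.0 CPM in carnosine. The carnosine libraries lay above those of saline, the nearest pair 32.3 and 32.8 CPM. On the log2 scale the change was 0.13 with a 95% interval from -0.04 to 0.31 (SE 0.07, edgeR adjusted p = 0.263). The receptor gene Igf1r, to which Grb10 protein binds, measured 228 ± 4.09 CPM and 240 ± 3.86 CPM (SD, n = 3; edgeR adjusted p = 0.131).

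Of 22 tested genes of IGF and insulin signalling, 4 rose and 1 fell. That is 22.7% called, near the 17.9% of all genes, and the median absolute log2 fold change was 0.17, against 0.16. Igfbp4, a secreted protein that holds IGFs away from their receptor, fell from 430 ± 2.32 CPM to 246 ± 14.2 CPM (SD, n = 3; log2 fold change -0.81, edgeR adjusted p = 2.85e-05). The insulin receptor substrate Irs2 rose from 106 ± 6.53 CPM to 149 ± 2.65 CPM (SD, n = 3; log2 fold change 0.49, edgeR adjusted p = 0.000731). The PI3 kinase subunit Pik3r1 (+0.21, edgeR adjusted p = 0.00374) and Nedd4, a ubiquitin ligase that binds GRB10 (+0.34, edgeR adjusted p = 0.00927), rose as well. The fourth rise was in the kinase Akt1 (+0.21, edgeR adjusted p = 0.021), named to complete the count after its value was seen. Its call was lost without saline replicate 1 or 3 or carnosine replicate 1 or 3 (edgeR adjusted p = 0.052 to 0.0683). Without saline replicate 2 the number that fell was 2, and with upper quartile scaling it was 3.

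Meg3 (ENSMUSG00000021268, chromosome 12, 109541001 to 109571726) is the maternal noncoding RNA of the Dlk1 cluster. It gave 7, 4 and 6 counts in the saline libraries. It gave 3, 2 and 2 counts in the carnosine libraries. All carnosine libraries lay below all saline libraries, at or under the level that a count of 0 allows. The ratio of summed counts was 0.392 with a 95% counting interval from 0.137 to 0.993, and the two-sided exact permutation test of CPM gave p = 0.1, the smallest possible. In an edgeR fit without a filter on low counts the adjusted p was 0.262. Rian, the noncoding RNA downstream of Meg3, gave 9 to 16 counts per library (1.03 and 1.05 CPM, edgeR adjusted p = 0.904). Dlk1, the paternal gene of the cluster, gave 2 counts in saline replicate 1, 2 in carnosine replicate 2 and 0 elsewhere. Of 6 neighbours listed, 2 were tested and 0 passed.

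Ndn (ENSMUSG00000033585, chromosome 7, 62346569 to 62350262) encodes necdin, a growth suppressor that binds E2F factors and p53. It gave 10.2, 7.94 and 7.79 CPM in saline and 9.10, 7.97 and 11.6 CPM in carnosine. The groups overlapped, with the highest value in carnosine replicate 3. Its log2 fold change was 0.16 with a 95% interval from -0.25 to 0.57 (SE 0.18, edgeR adjusted p = 0.575). In its cluster, 5 of 8 neighbours were tested and 1 rose, that is 20% called against 17.9% of all genes. Peg12, a paternally expressed gene of the FRAT family that inhibits GSK3, rose from 5.26 ± 0.706 CPM to 8.31 ± 0.690 CPM (SD, n = 3; log2 fold change 0.65, edgeR adjusted p = 0.0196). That call was lost with DESeq2 (adjusted p = 0.0538) and without saline replicate 1 or 3 or carnosine replicate 1 or 2 (edgeR adjusted p = 0.0527 to 0.0612). The splicing factor gene Snrpn stayed under the filter, with 1, 3 and 9 counts in saline and 15, 9 and 24 in carnosine. Without saline replicate 3 it was tested and passed (edgeR adjusted p = 0.0405), while in the other 4 alternatives that tested it the adjusted p was 0.0694 to 0.164 (edgeR). Magel2, a relative of Ndn, gave at most 1 count per library.

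Peg3 (ENSMUSG00000002265, chromosome 7, 6703892 to 6730431), a paternally expressed zinc finger protein gene, gave 10, 14 and 10 counts in saline and 8, 7 and 12 in carnosine. Its log2 fold change was -0.41 with an interval from -1.17 to 0.35 (SE 0.33, edgeR adjusted p = 0.455). Its neighbour Usp29, a ubiquitin protease gene that starts beside it, gave 0 to 2 counts per library. Plagl1 (ENSMUSG00000019817, chromosome 10, 13060504 to 13131694), a zinc finger transcription factor known to regulate other imprinted genes, gave 12, 7 and 7 counts in saline and 11, 6 and 15 in carnosine. The log2 fold change was 0.21 with an interval from -0.72 to 1.14 (SE 0.40, edgeR adjusted p = 0.76). For both genes the groups overlapped and the intervals were wide.

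Impact (ENSMUSG00000024423, chromosome 18, 12955852 to 12992950) encodes a protein that competes for GCN1 and so restrains the amino acid sensor kinase GCN2. It was the most abundant member per kilobase. It gave 61.0, 63.8 and 65.9 CPM in saline. It gave 57.8, 54.7 and 57 CPM in carnosine, and all carnosine libraries lay below all saline libraries. The log2 fold change was -0.17 with a 95% interval from -0.29 to -0.05 (SE 0.05), which did not pass the threshold over all genes (edgeR adjusted p = 0.0598). With upper quartile scaling it did (adjusted p = 0.0461). By the likeness measure used for Kcnq1ot1, the genes closest to Impact were Kifbp and Cog4, each with a difference of 0.02 log2 units.

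Eif2ak4, the gene of the kinase GCN2, measured 82.7 ± 0.350 CPM in saline and 82.6 ± 1.70 CPM in carnosine (SD, n = 3; edgeR adjusted p = 0.997). Of 8 tested genes of the GCN2 pathway 1 rose and 2 fell, that is 37.5% called against 17.9% of all genes. The median absolute log2 fold change of the 8 was 0.12, against 0.16 over all genes. The asparagine synthetase Asns rose by 0.50 on the log2 scale (edgeR adjusted p = 0.0258), whereas the transcription factor Ddit3 fell by 0.42 (edgeR adjusted p = 0.0184) and the phosphatase subunit Ppp1r15a by 0.39 (edgeR adjusted p = 0.0204). Each of these 3 calls was lost when certain single libraries were left out, with adjusted p up to 0.0794 for Asns, 0.0612 for Ddit3 and 0.0702 for Ppp1r15a (edgeR). For Asns this held for every library but carnosine replicate 2, and also with DESeq2 (adjusted p = 0.0605). For Ppp1r15a it held for saline replicates 1 and 2 and carnosine replicates 1 and 2, and for Ddit3 it held for saline replicates 1 and 2 and carnosine replicate 1.

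Beyond the 10 members, 62 other imprinted or neighbouring genes of the list were in the table, of which 36 were tested, 5 rose and 1 fell. That is 16.7% called, against 17.9% of all genes. Their median log2 fold change was 0.05. Imprinted genes outside the members' clusters supplied 4 of the 5 rises. The retrotransposon-derived Peg10 gave 2.21, 1.65 and 2.50 CPM in saline and 4.80, 3.84 and 4.31 CPM in carnosine (log2 fold change 1.01, SE 0.20, edgeR adjusted p = 0.0132). Peg13, a paternal noncoding RNA within Trappc9, rose from 261 ± 7.51 CPM to 314 ± 11.6 CPM (SD, n = 3; log2 fold change 0.26, edgeR adjusted p = 0.00335). Gatm, which makes the precursor of creatine, rose from 38.7 ± 1.29 CPM to 53.5 ± 1.23 CPM (SD, n = 3; log2 fold change 0.46, edgeR adjusted p = 0.00136). Zdbf2, a paternally expressed zinc finger gene, gave 10, 13 and 13 counts in saline and 27, 24 and 25 in carnosine (log2 fold change 1.0, edgeR adjusted p = 0.0213). Its call was lost with DESeq2 (adjusted p = 0.175), on FPKM values with limma (adjusted p = 0.281 and 0.119) and without saline replicate 1 or 3 or carnosine replicate 1 or 2 (edgeR adjusted p = 0.068 to 0.0765). The count of rises was 3 with DESeq2 and also 3 without carnosine replicate 1 or 2.

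**Figure D4:**
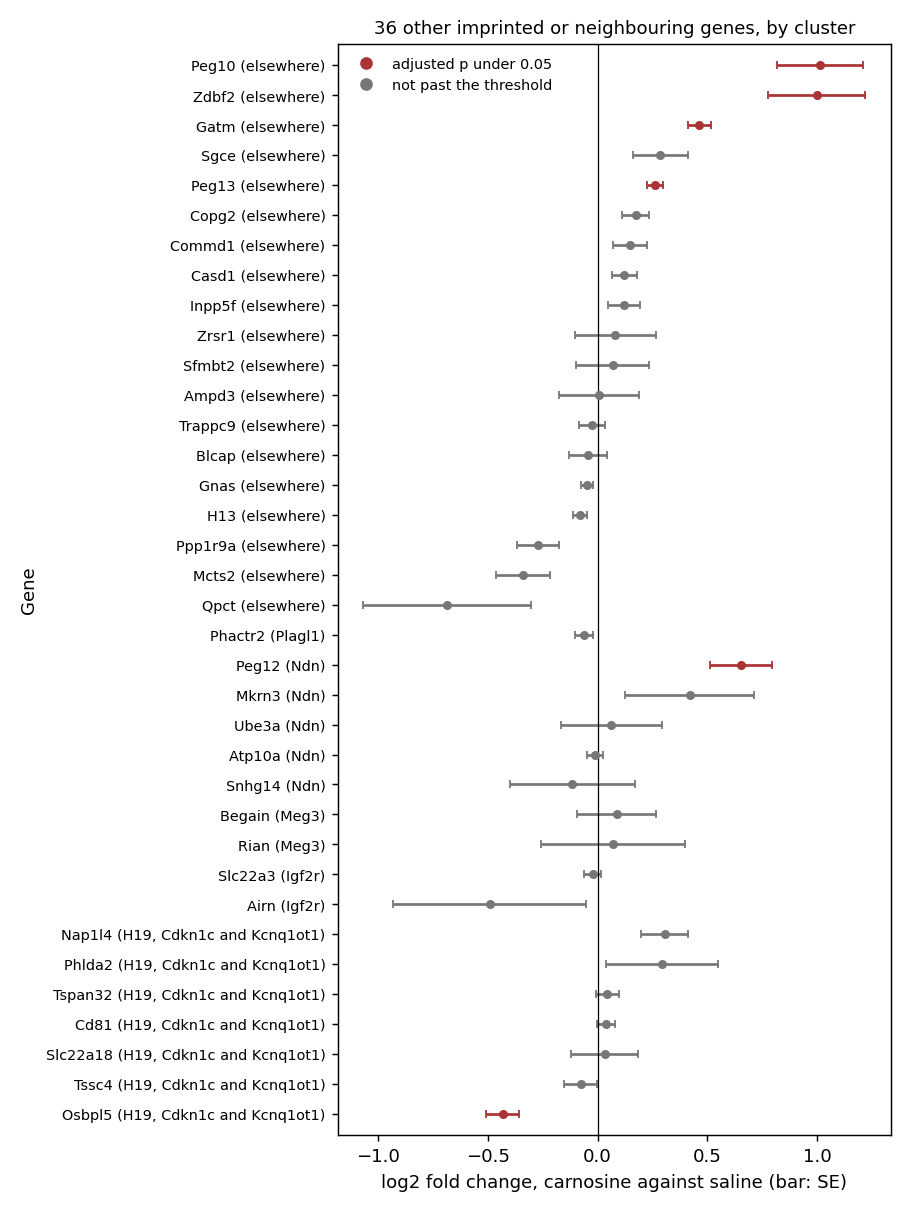
log2 fold change of carnosine against saline with its SE (x axis) for the 36 other imprinted or neighbouring genes tested (y axis), ordered by cluster, with the member whose cluster it is in brackets. The 5 genes that rose (Peg10, Zdbf2, Peg12, Gatm, Peg13) lie between 0.26 and 1.01, and Osbpl5 is the 1 that fell.

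Imprints are copied at each cell division by the methyltransferase DNMT1 with UHRF1 and protected by ZFP57 and TRIM28, while TET enzymes oxidise methylated cytosine. Of 18 tested genes of imprint maintenance and erasure 6 rose and 5 fell, 61.1% of the list against 17.9% of all genes. The median absolute log2 fold change of these 18 genes was 0.20, against 0.16 over all genes. The list was chosen with earlier results of these data known, so its share was not tested. The count of rises was 3 without saline replicate 3 or carnosine replicate 1 or 2, and 2 with DESeq2. The count of falls was 3 without saline replicate 1 or 3, with DESeq2 and without a filter on low counts. Dnmt1 rose from 495 ± 9.46 CPM to 572 ± 16.7 CPM (SD, n = 3; log2 fold change 0.21, edgeR adjusted p = 0.0032). Trim28 rose by 0.13 on the log2 scale (edgeR adjusted p = 0.0129), a call lost with DESeq2 (adjusted p = 0.145). Tet3 fell from 166 ± 4.64 CPM to 139 ± 1.99 CPM (SD, n = 3; log2 fold change -0.26, edgeR adjusted p = 0.00245).

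The chromatin proteins ARID4A and ARID4B, known to act together at an imprinted domain, differed in direction. Arid4a fell from 165 ± 9.09 CPM to 125 ± 0.926 CPM (SD, n = 3; log2 fold change -0.40, edgeR adjusted p = 0.00133). Arid4b rose from 89.2 ± 1.47 CPM to 107 ± 4.39 CPM (SD, n = 3; log2 fold change 0.26, edgeR adjusted p = 0.00694). Zfp57 gave 62 to 74 counts in saline and 72 to 106 in carnosine (edgeR adjusted p = 0.292).

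**Figure D5:**
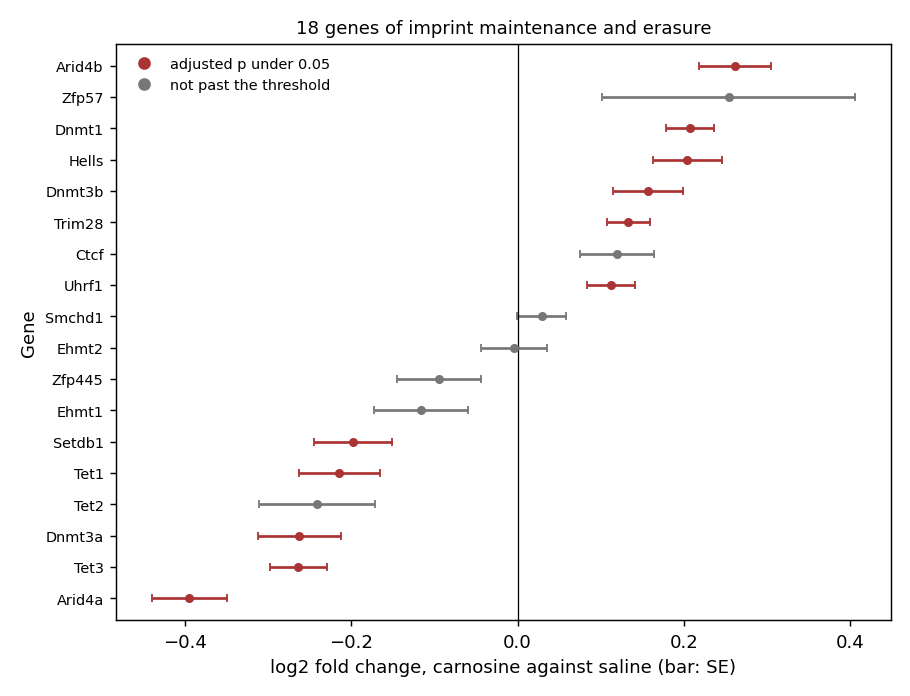
log2 fold change of carnosine against saline with its SE (x axis) for the 18 tested genes of imprint maintenance and erasure (y axis). Values run from -0.40 for Arid4a to 0.26 for Arid4b, with 6 rises and 5 falls past the threshold.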

How the data were processed

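RNA was measured in 6 poly-A selected, stranded paired-end libraries, per the labels' protocols. Per the submitters' processing notes, the tools were HISAT2, StringTie, edgeR and CASAVA 1.8, and the build GRCm38. The sources used here do not give the annotation release, the strand setting or the handling of multimapped reads. Each gene and library has a raw count and an FPKM value made by the authors, per the file headers. The deposited counts were used for all tests. Genes were filtered with filterByExpr, which kept 15298, scaled by TMM (factors 0.998 to 1.003) and tested with the two-sided quasi-likelihood test of edgeR 4.0.16 in R 4.3.3, at a threshold of 0.05 after Benjamini-Hochberg adjustment over those genes. Levels are CPM on the TMM scale. Intervals and floors of counts cover counting error only, since no molecular identifiers are used. Exon lengths came from GENCODE M21, which had the deposited locus of all 10 members. The members and gene lists were chosen with earlier results of these data known. Listed genes not in the table were Hymai, Nespas and Gcn1l1; Gcn1 was.

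Genes were named by a rule. It took the 10 members, in each list up to 4 genes past the threshold with the smallest p, and direct partners such as Igf2, Airn and Igf1r whatever their value. For the 2 members with the smallest p it added the 3 genes of average log2 CPM of at least 1 closest to them, of which 1 is not reported here. The test was checked on simulated counts. Alternatives were DESeq2 1.42.0, limma 3.58.1 (voom, and log2 FPKM with pseudocounts of 1 and 0.1), other scalings and filters, a replicate block, and leaving out each library.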

Additional observations from a re-analysis of the deposited data

How the results depend on the processing

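Kcnq1ot1 passed the threshold under all 16 alternatives, with log2 fold changes from -0.69 to -0.35 and adjusted p-values from 1.02e-13 to 0.0102. The value of -0.35 came from log2 FPKM with a pseudocount of 1. At 1.47 FPKM in saline and 0.928 in carnosine, that pseudocount draws the change toward 0. No member rose under any of the 16 alternatives. The members that fell numbered 2 with upper quartile scaling, which added Impact. Over all genes, DESeq2 called 772 higher and 764 lower, against 1455 and 1283 with edgeR. Leaving out each library gave 932 to 1009 higher and 801 to 883 lower. Other imprinted genes that rose numbered 3 with DESeq2 and 3 to 5 when each library was left out. Direction was compared for the members, the direct partners and the named genes of the imprinted, maintenance and pathway lists. None of these that passed the threshold changed direction, and other genes were not checked. Values near 0 did cross it when single libraries were left out: log2 fold changes ran from -0.041 to 0.19 for Cdkn1c, -0.010 to 0.29 for Ndn, -0.041 to 0.57 for Plagl1, -0.18 to 0.38 for Rian, -0.29 to 0.20 for Cdkn1b and -0.016 to 0.016 for Eif2ak4. Without a filter Eif2ak4 was at 0.013. The alternatives on the pathway lists were chosen after seeing the data.

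The replicate numbers are shared between the groups, but no shared deviation of same-numbered libraries was seen (correlations -0.0495, -0.0686 and 0.0188). With 3 libraries per group this cannot exclude a small shared effect. With the replicate block 946 genes were higher and 810 lower, and the calls of Zdbf2, Cdk4, Asns, Ppp1r15a and Akt1 were lost (edgeR adjusted p = 0.0562, 0.0537, 0.0611, 0.0642 and 0.0571). With the same block, 3 genes of imprint maintenance and erasure fell in place of 5. H19 and Meg3, at 2 to 7 counts per library, are limited by depth.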
